A study of Arabidopsis thaliana with 8 samples.

Results

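SOC1, SVP and 8 related regulators of the floral transition and of floral meristem identity were followed in Arabidopsis thaliana seedlings that lack the histone methyltransferase genes SDG8, SDG26 or both. The group was set by name and locus: SOC1 (AT2G45660), AGL24 (AT4G24540), SVP (AT2G22540), LFY (AT5G61850), AP1 (AT1G69120), FUL (AT5G60910), AGL19 (AT4G22950), AGL42 (AT5G62165), AGL71 (AT5G51870) and AGL72 (AT5G51860). All 10 had a probe, among 25383 genes with one. The study measured transcripts in the aerial part of seedlings aged 6 days, grown at 22 °C with 16 h of light and 8 h of darkness, by hybridising Cy3-labelled cRNA to 8 Agilent arrays. Each of the 4 genotypes has 2 of the arrays. They are the wild type Col, the mutants sdg8 and sdg26, and the mutant sdg8 sdg26 with both lesions, and the labels name no allele. The study asked, by its title, which genes the mutations affect in overlapping or opposing ways.

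All members but LFY encode MADS-domain transcription factors, which act in complexes with each other. In Arabidopsis, FLC and SVP repress the floral integrators FT and SOC1 in seedlings that remain vegetative; once this repression is lifted, FT and SOC1 lead to LFY, AP1 and FUL, which give the new primordia their floral identity. SDG8 methylates histone H3 at lysine 36 and is known for keeping FLC active, whereas SDG26 is known for promoting flowering through SOC1.

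A level is the log2 signal of a probe relative to the 75th percentile of its array, so levels of different probes are not comparable, and the number of arrays limits the precision. A difference is on the log2 scale, with the standard error that limma estimated from all 8 arrays together (n = 2 per genotype). The words rose and fell are kept for a Benjamini-Hochberg adjusted p under 0.05, taken over the 20618 genes that could be tested. Where no array of a genotype was well above background, its level is known only as an upper bound, and the fold is given as at least N-fold. In whole aerial tissue, fewer cells that express a gene and less RNA per cell cannot be told apart.

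The targeted genes bore out the labels. SDG8 differed from wild type by −2.91 ± 0.18 in sdg8 and −2.33 ± 0.18 in sdg8 sdg26, and SDG26 by −4.63 ± 0.33 in sdg26 and −3.44 ± 0.33 in sdg8 sdg26, and all 4 passed the test. The wild-type arrays came from slides 1 and 2, the sdg8 arrays from slide 3, and the sdg26 and sdg8 sdg26 arrays from slide 4, so only sdg26 and sdg8 sdg26 can be compared within a slide. The 4 arrays of slide 4 had 77.2% to 79.0% of their probes well above background, and each of the 4 others had fewer, from 72.1% upward. The 5 leaf markers were well above background on all 8 arrays, and so were 11 of 16 root markers, although the labels name the aerial part.

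Of the 10 genes, 5 were well above background on all 8 arrays: SOC1, AGL24, SVP, FUL and AGL19. AP1, AGL42, AGL71 and AGL72 were tested because 1 or 2 genotypes carried them above background, so a difference for these 4 was built into the choice of what to test. Of them, 3 entered through sdg26 alone (AP1, AGL71 and AGL72), and AGL42 entered through sdg8 and sdg8 sdg26. LFY, the transcription factor that starts floral fate in a primordium, was not well above background on any array, at levels from −9.57 to −8.20, and was not tested.

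**Figure D1:**
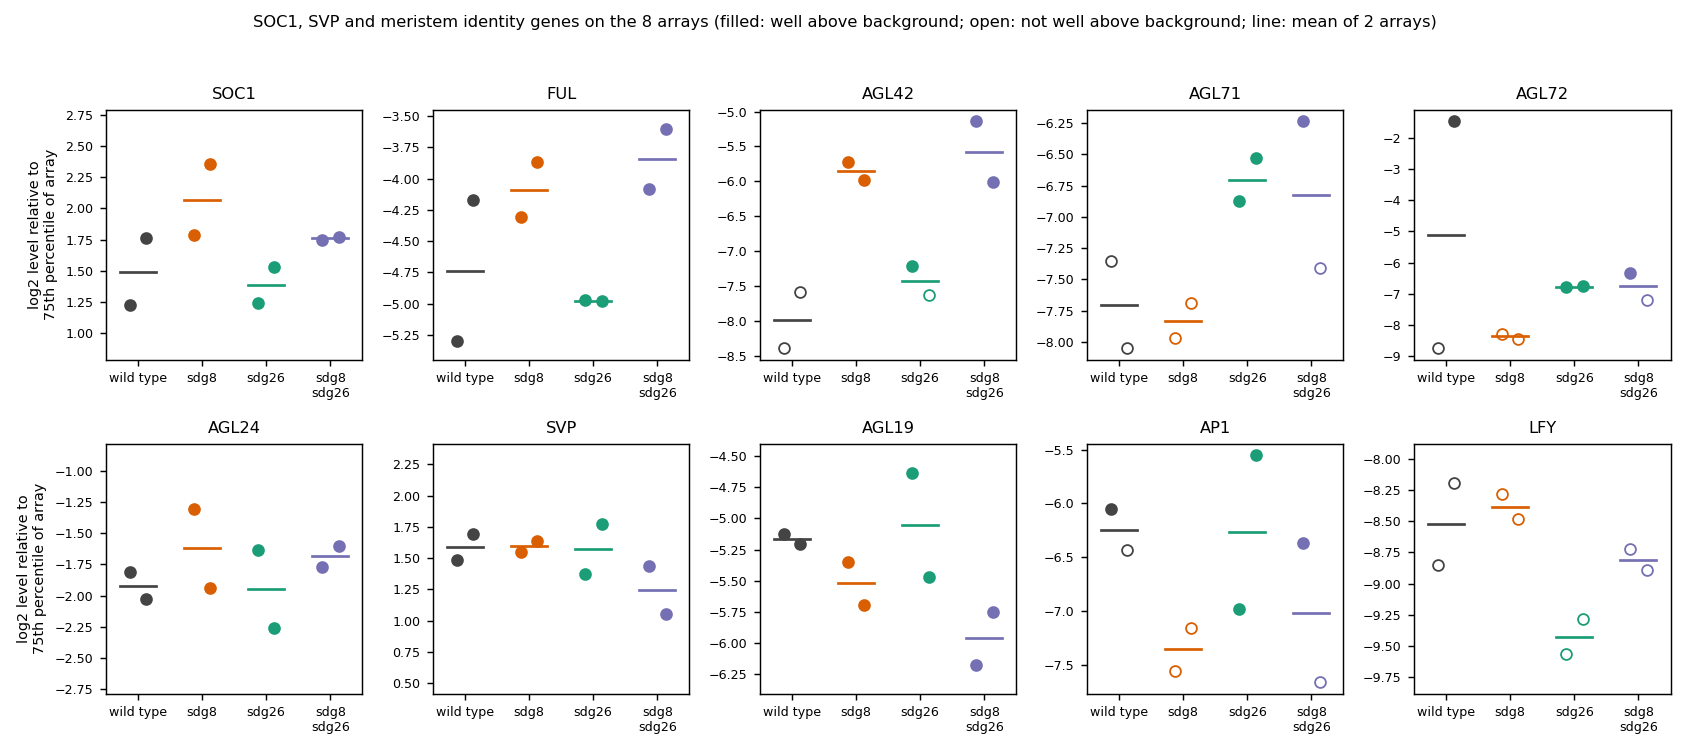
Levels of the 10 genes on each array, 1 panel per gene with its own vertical axis (log2 signal relative to the 75th percentile of the array) and the 4 genotypes along the horizontal axis. Points are arrays, filled where the probe was well above background, and lines are means of 2 arrays. The AGL42 arrays of sdg8 and sdg8 sdg26, from −6.01 to −5.14, sit above those of wild type and sdg26, from −8.40 to −7.21.

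AGL42 was the only member that passed the test in any of the 7 comparisons planned. It rose in sdg8 and in sdg8 sdg26, while SOC1, the best known member, did not pass in any. Among the 9 members tested, 1 rose and 0 fell in sdg8, where 2.68% of all genes tested passed (0.810% higher and 1.87% lower). In sdg8 sdg26, 1 rose and 0 fell, where 6.26% passed (3.07% higher and 3.19% lower). In sdg26 none of the 9 passed, and 0.00970% of all genes did. At an unadjusted p under 0.05 the sdg26 count was 1 of 9, beside 8.96% of all genes. The members' median difference stood at 0.0053 in sdg8, at −0.023 in sdg26 and at 0.23 in sdg8 sdg26, beside −0.0093, 0.020 and 0.030 over all genes tested. The comparisons with wild type share its 2 arrays, so they are not independent of each other.

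Between mutants no member passed, while 2.21% of all genes did for sdg8 sdg26 against sdg26, 0.281% for sdg8 sdg26 against sdg8 and 3.17% for sdg8 against sdg26. At an unadjusted p under 0.05 the members' counts in these comparisons were 3, 1 and 4 of 9, beside 15.0%, 13.8% and 16.8% of all genes. For the interaction, which asks whether the sdg8 difference depends on sdg26, no member passed and 0.00485% of all genes did, and at an unadjusted p under 0.05 it was 0 of 9 members and 4.49% of all genes. After the levels had been seen, the mean sdg8 difference over both backgrounds and the mean sdg26 difference were added, which makes 9 comparisons. AGL42 alone of the 9 passed the mean sdg8 comparison, where 7.62% of all genes did (2.76% higher and 4.86% lower). No member passed the mean sdg26 comparison, where 0.650% of all genes did, and 1 of 9 members had an unadjusted p under 0.05, beside 18.2% of all genes.

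**Figure D2:**
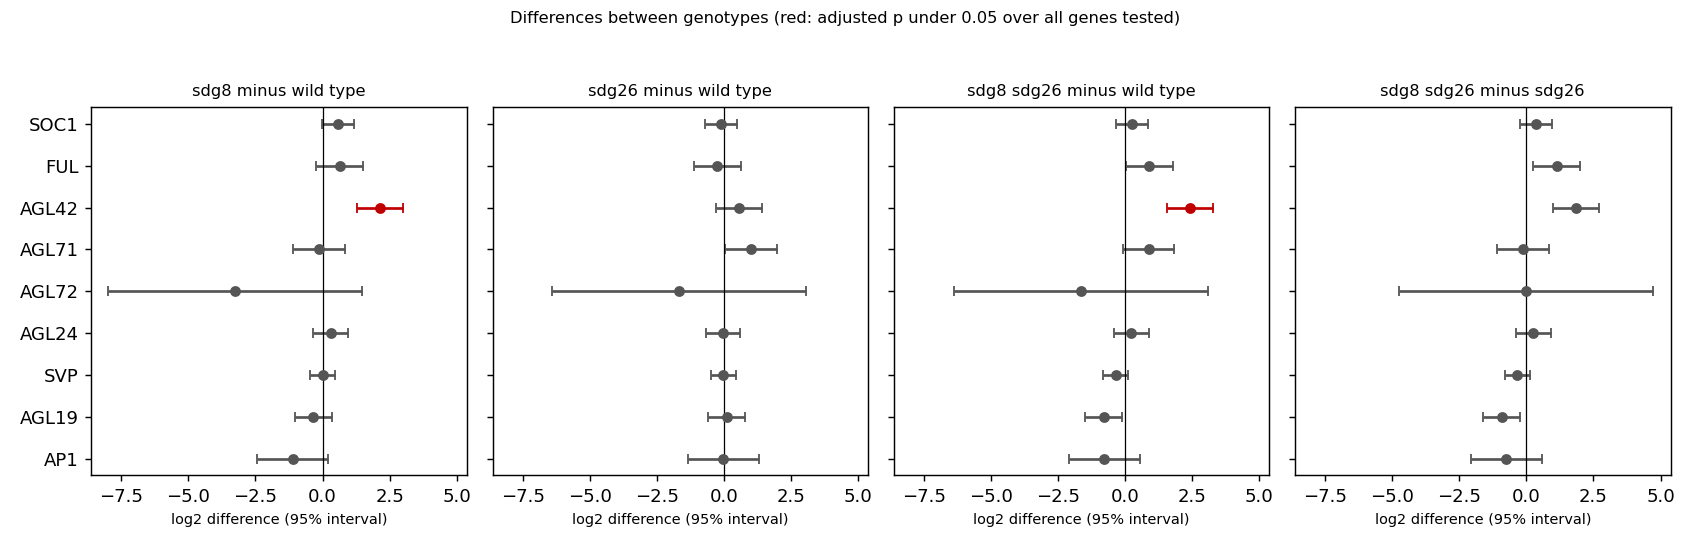
Differences of the 9 tested members in 4 comparisons, on the log2 scale along the horizontal axis, with 95% intervals from the limma fit as bars. Red marks an adjusted p under 0.05 over all genes tested, which AGL42 has in sdg8 (2.14) and in sdg8 sdg26 (2.42) against wild type. The bars of AGL72 are wide because its wild-type arrays lay at −8.75 and −1.47.

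SOC1 is the MADS-domain integrator that gathers signals from FT, gibberellin and the ageing pathway. Its level was 1.22 and 1.76 on the wild-type arrays, 1.79 and 2.35 in sdg8, 1.24 and 1.53 in sdg26, and 1.75 and 1.77 in sdg8 sdg26. Both sdg8 arrays lay above both wild-type arrays, although the lower of them by little, and the sdg26 arrays lay within the wild-type range. The order of the means was sdg8 (2.07), sdg8 sdg26 (1.76), wild type (1.49) and sdg26 (1.39), and no neighbours in that order differed beyond their spread.

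The SOC1 difference was 0.58 ± 0.25 in sdg8 (limma adjusted p = 0.315), with a 95% interval from −0.018 to 1.17. In sdg26 it was −0.11 ± 0.25 (adjusted p = 0.913), with an interval from −0.70 to 0.49. In sdg8 sdg26 it was 0.27 ± 0.25 (adjusted p = 0.537), and leaving out each array in turn moved it between −0.0034 and 0.54. The widest contrast was between sdg8 and sdg26, at 0.68 ± 0.25 (adjusted p = 0.230), with the arrays of both genotypes apart. The mean sdg8 difference of SOC1, 0.47 ± 0.18, gave an adjusted p of 0.165.

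By a rule that named the genes whose levels followed SOC1 most closely over the 8 arrays, AT4G18650 came first with a Pearson r of 0.96, then EDL3 with 0.95 and AT5G38100 with 0.94. They were searched among 3120 genes that were well above background on all arrays and spanned at least 1 log2 unit, and with 8 arrays such a search returns high values by selection alone. The next genes to SOC1 in the TAIR10.1 gene table are AGL6 and a long non-coding RNA that was not tested. AGL6, a MADS-domain gene of floral meristems, is described with the partners below.

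SVP is a repressor that binds together with FLC and holds FT and SOC1 down. Its level on the probe used for the gene was 1.48 and 1.70 in wild type, 1.55 and 1.64 in sdg8, 1.37 and 1.78 in sdg26, and 1.44 and 1.05 in sdg8 sdg26. The single mutants overlapped with wild type, and both sdg8 sdg26 arrays lay below it. The difference was 0.0053 ± 0.19 in sdg8 (adjusted p = 0.993), with a 95% interval from −0.46 to 0.47. In sdg8 sdg26 it was −0.34 ± 0.19 (adjusted p = 0.305). On the other SVP probe the sdg8 sdg26 difference was 0.058 ± 0.21, of opposite sign, and the sdg8 difference was 0.39 ± 0.21 (adjusted p = 0.412 over 34106 probes), of the same sign as the near-zero value of the first.

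AGL24 is the closest relative of SVP and, in contrast to it, promotes flowering together with SOC1. Its level ranged from −2.26 to −1.31 over the 8 arrays, the single mutants overlapped with wild type (−1.81 and −2.03), and both sdg8 sdg26 arrays (−1.77 and −1.60) lay above it. The difference was 0.30 ± 0.27 in sdg8 (adjusted p = 0.647) and 0.23 ± 0.27 in sdg8 sdg26 (adjusted p = 0.625). In sdg26 it was −0.030 ± 0.27 (adjusted p = 0.981).

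AGL42 belongs, with AGL71 and AGL72, to the SOC1-like genes that promote flowering in the shoot, and it is also known from the quiescent centre of the root. On the probe used for the gene its level was −8.40 and −7.59 in wild type, −5.72 and −5.98 in sdg8, −7.21 and −7.63 in sdg26, and −5.14 and −6.01 in sdg8 sdg26. The 4 arrays with the sdg8 mutation lay above the 4 without it, and all 4 were well above background. Neither wild-type array was, and of the sdg26 arrays only replicate 1 was. AGL42 was tested through sdg8 and sdg8 sdg26 alone, so a higher level in these genotypes was favoured by that choice.

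AGL42 rose by 2.14 ± 0.37 in sdg8 (limma adjusted p = 0.0358), at least 1.53-fold since wild type was not well above background. In sdg8 sdg26 it rose by 2.42 ± 0.37 (adjusted p = 0.0166), at least 1.85-fold. Against sdg26, within slide 4, the sdg8 sdg26 difference was 1.85 ± 0.37 (adjusted p = 0.0601), and sdg8 against sdg26 gave 1.58 ± 0.37 (adjusted p = 0.0792). The interaction of −0.30 ± 0.52 (adjusted p = 0.995) did not separate the sdg8 difference in the 2 backgrounds. In the comparison added later, the mean sdg8 difference was 2.00 ± 0.26 (adjusted p = 0.00710), and it passed without any 1 of the 8 arrays, at adjusted p from 0.00931 to 0.0307.

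These calls rest on dim spots. The error that the scanner software gave the AGL42 signal was 69.2% and 60.1% of the signal on the wild-type arrays and 18.4% and 20.4% on the sdg8 arrays. The sdg8 call held without either sdg8 sdg26 array and was lost without any of the other 6, at adjusted p from 0.0618 (without sdg26 replicate 1) to 0.150 (without sdg8 replicate 1). The sdg8 sdg26 call ended where wild-type replicate 1 (adjusted p = 0.0745) or sdg8 sdg26 replicate 1 (adjusted p = 0.0543) was left out. With signals corrected by normexp on each array's median background, the differences were 0.46 (adjusted p = 0.490) and 0.42 (adjusted p = 0.281), and with normexp on the local background they changed sign, to −0.81 and −1.28, without passing.

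The other AGL42 probe was well above background only on wild-type replicate 2 and was left out of the test. Its level was −7.70 and −5.56 in wild type, −6.12 and −6.41 in sdg8, −8.11 and −7.71 in sdg26, and −6.56 and −6.51 in sdg8 sdg26. On it, wild-type replicate 2 lay above all 4 arrays with the sdg8 mutation, whereas wild-type replicate 1 and both sdg26 arrays lay below them. The rise of AGL42 against wild type was therefore carried by 1 of its 2 probes.

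**Figure D3:**
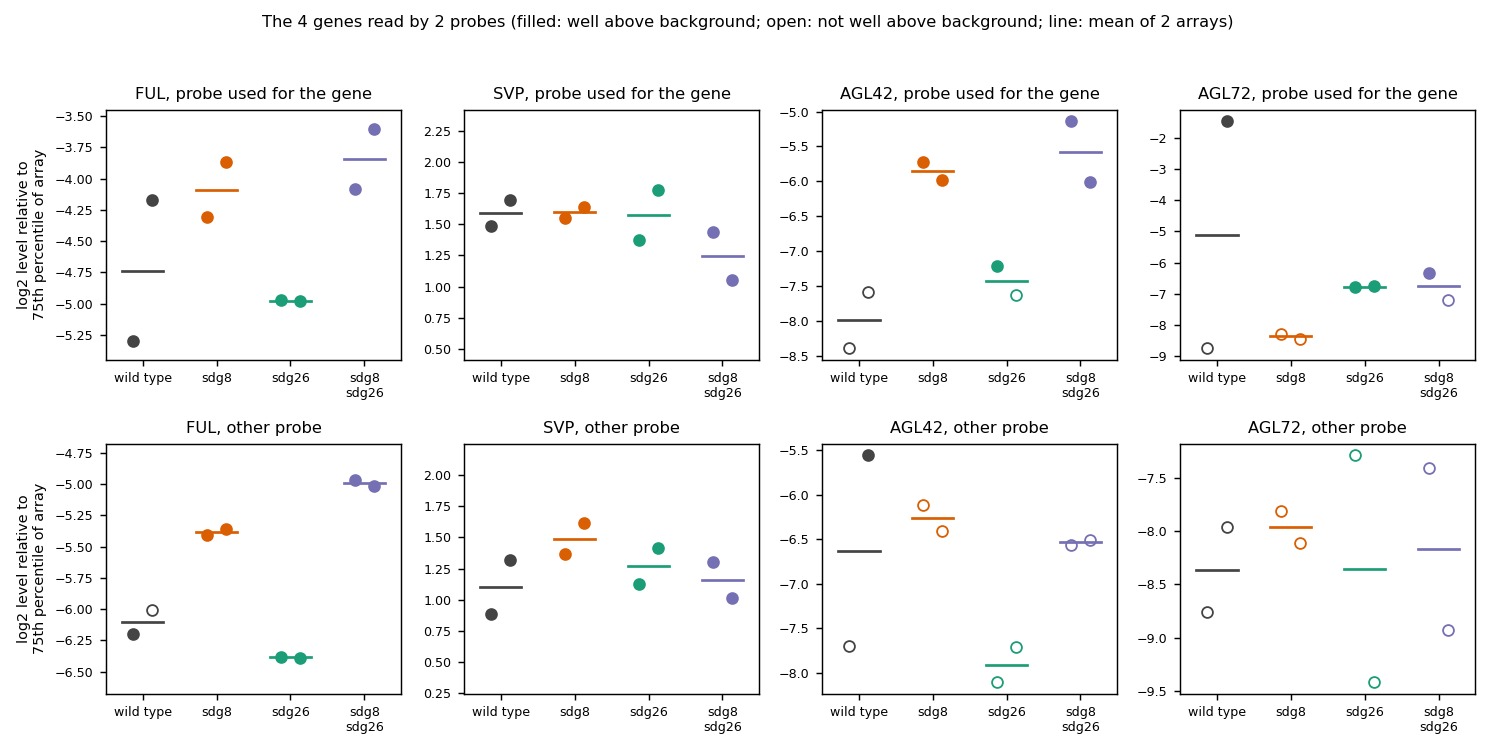
Levels of the 4 members read by 2 probes, with the probe used for the gene in the upper row and the other probe in the lower row, on the log2 scale relative to the 75th percentile of the array. Points are arrays, filled where well above background, and lines are means of 2 arrays. Both FUL probes place the sdg8 sdg26 arrays above the sdg26 arrays, and on the other AGL42 probe wild-type replicate 2 (−5.56) is the highest array.

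The summed level of the 16 root markers was 1.52 to 1.70 in wild type, 1.71 to 1.78 in sdg8, 1.62 to 1.69 in sdg26 and 1.93 to 2.06 in sdg8 sdg26, in log2. The root sums were higher on the arrays of sdg8 sdg26 and, by little, on those of sdg8. The sum weighs bright probes most, such as those of SCR and SHR, and need not follow the amount of root tissue. Of the 13 root markers tested, 8 were above wild type in sdg8 and 12 in sdg8 sdg26. Of 13 root markers tested, 0 rose and 1 (IRT1) fell in sdg8, with a median difference of 0.13. In sdg8 sdg26, 3 rose and 0 fell, with a median of 0.72. Over all genes tested, 0.810% rose and 1.87% fell in sdg8, and 3.07% rose and 3.19% fell in sdg8 sdg26. The medians over all genes were −0.0093 and 0.030. The IRT1 call ended without wild-type replicate 1 or either sdg8 array, at adjusted p up to 0.0785. The 3 that rose were the root hair expansin EXPA7 (1.71 ± 0.28), AGL12 (1.32 ± 0.21) and CASP1 of the endodermis (0.97 ± 0.20). The CASP1 call ended with any 1 array left out, and those of EXPA7 and AGL12 with either array of wild type or of sdg8 sdg26 left out, at adjusted p up to 0.106 and 0.0921. AGL21 was lower in sdg8 sdg26 than in sdg26, by a difference of −1.34 ± 0.22 (adjusted p = 0.0332, at least 2.50-fold), and lower in sdg8 than in sdg26, by −2.24 ± 0.22 (adjusted p = 0.00607, at least 1.38-fold). AGL21 was well above background only on the 2 sdg26 arrays and was tested through sdg26 alone, so a lower level elsewhere was built into the choice of what to test. Its call of sdg8 sdg26 against sdg26 held in 2 of the 8 fits that each left out an array (adjusted p up to 0.162), and that of sdg8 against sdg26 ended without sdg26 replicate 1 (adjusted p = 0.0506). PLT1 and PLT2, which define the root stem cell niche, and NRT2.1 were not well above background on any array. The part of root tissue in the AGL42 difference was not tested.

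The genes that followed AGL42 most closely over the 8 arrays were LON3 with a Pearson r of 0.98, HEMA3 with 0.98 and AT3G62280 with 0.97, among 3121 genes searched. Of its neighbours in the gene table, TRM25 did not pass in any comparison, and MIR399c was not tested.

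AGL71 lies next to AGL72 in the gene table, and both act with AGL42 in the shoot. The level of AGL71 was −7.35 and −8.05 in wild type, −7.97 and −7.69 in sdg8, −6.87 and −6.53 in sdg26, and −6.23 and −7.41 in sdg8 sdg26. Both sdg26 arrays lay above both wild-type arrays. The 3 arrays on which AGL71 was well above background, both of sdg26 and sdg8 sdg26 replicate 1, are all of slide 4, where more probes were. The difference was 1.00 ± 0.40 in sdg26 (adjusted p = 0.542) and 0.88 ± 0.40 in sdg8 sdg26 (adjusted p = 0.223). As no wild-type array was well above background, the folds are bounded only as at least 0.85-fold and 0.78-fold, which does not establish a rise. The mean sdg26 difference was 1.00 ± 0.29 (adjusted p = 0.158), and here slide and genotype cannot be told apart.

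The AGL72 values were set by 1 spot. On the probe used for the gene, wild-type replicate 2 had a level of −1.47, while the other 7 arrays ranged from −8.75 to −6.32. On the other AGL72 probe, which was not well above background on any array, wild-type replicate 2 stood at −7.96. With that spot in, the sdg8 difference of AGL72 was −3.25 ± 1.99 (adjusted p = 0.472). Without wild-type replicate 1, which leaves that spot as the whole wild type, it was −6.89 (adjusted p = 0.00708), and without wild-type replicate 2 it turned to 0.39 (adjusted p = 0.776).

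AGL19 is a relative of SOC1 that promotes flowering after cold, independently of FLC. Its level was −5.13 and −5.21 in wild type, −5.35 and −5.69 in sdg8, −4.64 and −5.47 in sdg26, and −6.17 and −5.75 in sdg8 sdg26. The sdg8 sdg26 arrays lay below all 6 others, and the sdg8 arrays lay below wild type. The difference was −0.79 ± 0.29 in sdg8 sdg26 (adjusted p = 0.143), −0.35 ± 0.29 in sdg8 (adjusted p = 0.601) and 0.12 ± 0.29 in sdg26 (adjusted p = 0.919). Against sdg26 on the same slide, sdg8 sdg26 differed by −0.91 ± 0.29 (adjusted p = 0.205). Its neighbour AT4G22960 went the other way, with a rise of 0.90 ± 0.14 in sdg8 sdg26 (adjusted p = 0.0178).

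FUL acts with AP1 in floral meristems and with SOC1 in the timing of flowering. On the probe used for the gene its level was −5.30 and −4.17 in wild type, −4.31 and −3.87 in sdg8, −4.97 and −4.98 in sdg26, and −4.08 and −3.60 in sdg8 sdg26. All 4 arrays with the sdg8 mutation lay above both sdg26 arrays, and the wild-type arrays lay far apart. The difference was 0.65 ± 0.37 in sdg8 (adjusted p = 0.439), 0.89 ± 0.37 in sdg8 sdg26 (adjusted p = 0.183) and −0.24 ± 0.37 in sdg26 (adjusted p = 0.866). Against sdg26, within slide 4, the sdg8 sdg26 difference was 1.14 ± 0.37 (adjusted p = 0.214). The mean sdg8 difference was 0.89 ± 0.26 (adjusted p = 0.0952), and 1.17 (adjusted p = 0.0276) without wild-type replicate 2.

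FUL has another, dimmer probe whose arrays lay closer together, and it was tested after its values had been seen, in a fit over all 34106 kept probes. Its level was −6.20 and −6.01 in wild type, −5.41 and −5.36 in sdg8, −6.38 and −6.39 in sdg26, and −4.97 and −5.01 in sdg8 sdg26. The arrays with the sdg8 mutation lay above the 4 without it, and 7 of the 8 arrays were well above background. On this probe FUL rose by 0.72 ± 0.12 in sdg8 (adjusted p = 0.0398, where 2.31% of all kept probes passed) and by 1.11 ± 0.12 in sdg8 sdg26 (adjusted p = 0.00726, where 5.07% passed).

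On the same probe sdg8 sdg26 was above sdg26 by 1.39 ± 0.12 (adjusted p = 0.00460, where 1.94% of kept probes passed), and sdg8 was above sdg26 by 1.00 ± 0.12 (adjusted p = 0.0121, where 2.95% passed). The interaction was 0.68 ± 0.17 (adjusted p = 0.703). The sdg8 call of this probe was lost without any 1 of the 8 arrays, at adjusted p from 0.0636 (without sdg8 sdg26 replicate 1) to 0.173 (without sdg8 replicate 2). The call of sdg8 against sdg26 was lost without either array of sdg8 or of sdg26, at adjusted p up to 0.0958. The other 2 calls held without each array in turn. With normexp on the median background none of the 4 calls remained (0.77 and adjusted p = 0.0612 for sdg8 sdg26 against sdg26), and with normexp on the local background the differences turned negative, as given with the other reversals in the closing section. With the mean of both FUL probes, sdg8 sdg26 was above sdg26 by 1.27 (adjusted p = 0.0442).

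AP1 specifies floral meristems and later sepals and petals. Its level was −6.05 and −6.43 in wild type, −7.56 and −7.16 in sdg8, −6.98 and −5.55 in sdg26, and −6.37 and −7.67 in sdg8 sdg26. It was well above background on 4 of the 8 arrays, wild-type replicate 1, both of sdg26 and sdg8 sdg26 replicate 1, and on neither sdg8 array. Both sdg8 arrays lay below both wild-type arrays, with a measured difference of −1.11 ± 0.55 (adjusted p = 0.374). The fold of wild type over sdg8 is bounded only as at least 0.96-fold, which does not establish a lower level. In sdg26 the difference was −0.023 ± 0.55 (adjusted p = 0.994).

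Counted over the members, the arrays of sdg8 did not overlap with wild type for 4 of the 9 genes, beside 48.0% of all genes tested. For sdg26 the count was 1, beside 41.3%, and for sdg8 sdg26 it was 5, beside 54.9%. With 2 arrays a genotype such separation was as frequent over all genes, and nothing is read from the members' counts.

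Several regulators that act on these genes passed the test. Among 16 upstream repressors tested, 0 rose and 4 fell in sdg8, with a median difference of −0.11. In sdg8 sdg26, 0 rose and 5 fell, with a median of −0.067. Over all genes tested, 0.810% rose and 1.87% fell in sdg8, and 3.07% rose and 3.19% fell in sdg8 sdg26. The medians over all genes were −0.0093 and 0.030. The same shares and medians stand beside the activators, partners and shoot meristem genes below. FLC fell by 5.53 ± 0.47 in sdg8 (adjusted p = 0.00428), at least 29.8-fold, from −1.33 and −1.23 in wild type to −7.10 and −6.52. In sdg8 sdg26, where it was at −5.26 and −6.83, it fell by 4.76 ± 0.47 (adjusted p = 0.00462). In sdg26 it was at −0.75 and −0.60, above wild type without passing. FLC was tested through wild type and sdg26, the genotypes with both arrays well above background, so a lower level elsewhere was favoured by that choice. Its relatives FLM, MAF4 and MAF5 fell in both genotypes with the sdg8 mutation. The differences were −3.29, −2.07 and −1.34 in sdg8 and −3.30, −4.02 and −1.17 in sdg8 sdg26. MAF4 and MAF5 were low in sdg26 too, at means of −3.28 and −3.54 beside −0.60 and −2.30 in wild type, without passing there. MAF4 also fell in the mean sdg26 comparison, at −2.32 (limma adjusted p = 0.0163). That call ended without any 1 array of sdg8 or sdg26. The FLC and FLM calls held without each array in turn. The MAF4 call of sdg8 ended without any 1 array of wild type or sdg8 (adjusted p up to 0.0928), and that of MAF5 without either sdg8 array (adjusted p up to 0.0791). In sdg8 sdg26 the MAF4 call held throughout, and that of MAF5 ended without replicate 1 of wild type or of sdg8 sdg26 (adjusted p up to 0.0586). MAF3 fell by 0.61 in sdg8 sdg26 (adjusted p = 0.0474), a call lost without any 1 array. In the mean sdg8 comparison the MAF3 difference was −0.76 (limma adjusted p = 0.00625), and that call held without each array in turn.

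**Figure D4:**
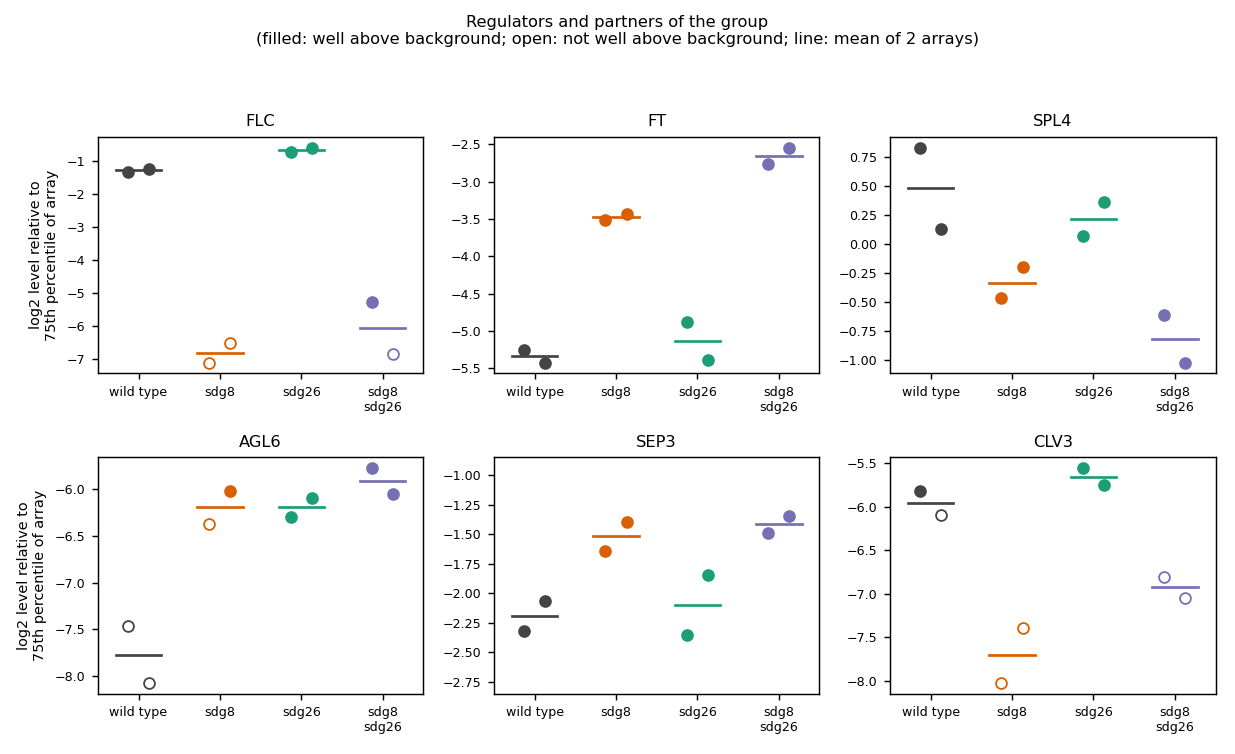
Levels of 6 regulators and partners of the group on each array, on the log2 scale relative to the 75th percentile of the array. Points are arrays, filled where well above background, and lines are means of 2 arrays. FLC is low and FT high on the 4 arrays with the sdg8 mutation, while AGL6 is lowest on the wild-type arrays.

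Of 13 upstream activators tested, 1 rose and 0 fell in sdg8, with a median difference of −0.058, and 1 rose and 1 fell in sdg8 sdg26, with a median of 0.22. The one that rose was FT, which encodes the mobile signal that activates SOC1, FUL and AP1. Its level was −5.26 and −5.42 in wild type, −3.52 and −3.44 in sdg8, −4.88 and −5.39 in sdg26, and −2.77 and −2.55 in sdg8 sdg26. FT rose by 1.87 ± 0.19 in sdg8 (adjusted p = 0.00758) and by 2.69 ± 0.19 in sdg8 sdg26 (adjusted p = 0.00180). The sdg8 call of FT missed the threshold with wild-type replicate 2 or sdg8 replicate 2 left out, at adjusted p up to 0.0523. SPL4, an activator of FUL and SOC1 in the ageing pathway, fell by 1.29 ± 0.27 in sdg8 sdg26 (adjusted p = 0.0409), a call that held in 1 of the 8 fits that each left out an array. TSF, a close relative of FT, was not well above background on any array.

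Of 10 partners and targets of the meristem identity genes, 6 were tested, and UFO, SEP2 and AP3 were not well above background on any array. AGL6, the neighbour of SOC1, rose in sdg8 and in sdg8 sdg26, the only call of the 6 in either, and the median difference was 0.56 and 0.51. Its level was −7.47 and −8.08 in wild type, −6.37 and −6.02 in sdg8, −6.30 and −6.09 in sdg26, and −5.77 and −6.05 in sdg8 sdg26. AGL6 was above wild type by 1.58 ± 0.24 in sdg8 (adjusted p = 0.0248), at least 1.20-fold, and by 1.86 ± 0.24 in sdg8 sdg26 (adjusted p = 0.00974), at least 1.46-fold. It was tested through sdg26 and sdg8 sdg26, the genotypes with both arrays well above background, so a rise over wild type in sdg8 sdg26 was favoured by that choice.

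The AGL6 difference of sdg26 was as large as that of sdg8, 1.58 ± 0.24, but its adjusted p was 0.171. The AGL6 call of sdg8 ended with wild-type replicate 2 or either sdg8 array left out, at adjusted p up to 0.118, and both AGL6 differences from wild type turned negative with normexp on the local background. SEP3, a partner of AP1 in floral complexes, was higher by 0.68 ± 0.14 in the mean sdg8 comparison (adjusted p = 0.0370), and SEP4 fell by 0.66 ± 0.11 (adjusted p = 0.0191). Without single arrays the SEP3 call held in 1 of 8 fits and the SEP4 call in 3.

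Shoot meristem genes were read as a rough guide to the tissue in which the members act. Their summed level was 1.40 to 1.43 in wild type and 1.44 to 1.60 on the 6 mutant arrays, in log2. Wild type was thus lowest, but the nearest arrays differed by little (1.43 against 1.44). Bright probes, such as those of CLV1, PNY and KNAT1, weigh most in this sum, which need not follow the amount of meristem. PNY itself was highest in wild type, at a mean of −0.44, beside mutant means from −1.02 to −0.66. Of the 11 genes tested, 7 were above wild type in sdg8 and 9 in each of the other mutants. WUS, which defines the organizing centre, and LAS were not well above background on any array. Of 11 tested, 0 rose and 1 fell in sdg8, with a median difference of 0.15, and 1 rose and 0 fell in sdg8 sdg26, with a median of 0.24. STM, which keeps the meristem undifferentiated, rose by 0.81 ± 0.12 in sdg8 sdg26 (adjusted p = 0.0154), a call that ended without either wild-type array or sdg8 sdg26 replicate 1 (adjusted p up to 0.0650). CLV3, the signal of the meristem's stem cells, was well above background on 3 arrays, both of sdg26 and wild-type replicate 1, and was tested through sdg26 alone, the genotype where it was highest. It fell by 1.76 ± 0.23 in sdg8 (adjusted p = 0.0165), at least 1.17-fold, with levels of −5.81 and −6.09 in wild type and −8.03 and −7.39 in sdg8. That call ended without either wild-type array or sdg8 replicate 1. In the mean sdg8 comparison the CLV3 difference was −1.52 (limma adjusted p = 0.00376), and that call held without each array in turn. A lower level than in sdg26 was favoured by the choice of what to test. Within slide 4, CLV3 was lower in sdg8 sdg26 than in sdg26, by −1.27 ± 0.23 (adjusted p = 0.0460), at least 2.42-fold, a difference favoured by that choice, and this call held in 2 of the 8 fits that each left out an array (adjusted p up to 0.197). None of the 5 leaf markers passed in any of the 9 comparisons, with 4 of 45 values at an unadjusted p under 0.05, beside 16% of the values of all genes, and their median difference was −0.31 in sdg8 and −0.21 in sdg8 sdg26. The same unadjusted counts were 46 of 117 for root markers, 30 of 99 for shoot meristem genes and 38 of 144 for repressors. For activators the count was 22 of 117, and for partners and targets 23 of 54. The 9 comparisons share arrays, so these values are not independent. The part of meristem amount in the differences of FUL and AGL42 was not tested.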

How the data were processed

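RNA had been extracted with TRIzol, and 0.5 ug of it amplified into Cy3-labelled cRNA, per the labels' protocols. The authors' spot intensity values came from Agilent Feature Extraction (release 11.5.1.1 per the file headers, 9.1 per the submitters' processing notes), and the processed intensity has the background removed by that software, per the file headers. A deposited log2 table of the same arrays was within −0.0103 to −0.0067 of the values used here in the median, which settled its scale, centring and direction. It was run as an alternative. Its medians per array were −2.33 and −2.33 in wild type, −2.37 and −2.32 in sdg8, −2.31 and −2.29 in sdg26, and −2.30 and −2.31 in sdg8 sdg26.

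The log2 processed intensity was centred on the 75th percentile of each array's non-control spots. Non-uniform spots were set to missing, 0 spots were saturated, and repeated spots were averaged. A probe was kept if some genotype had it well above background on its 2 arrays, which held for 34111 of 43603. TAIR10.1 gave names and gene order for 34285 of the 36098 probes whose identifier is a RefSeq transcript. Each gene was represented by its kept probe of highest mean, and the members had 14 probes in all. Whether a probe also binds transcripts of related MADS genes was not tested. Replicates correlated at 0.985 to 0.991.

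Comparisons were two-sided limma 3.58.1 tests (R 4.3.3) from a single model of the 4 genotypes, with 4 residual and 2.81 prior degrees of freedom, adjusted by Benjamini-Hochberg within each comparison. The steps were tested on simulated data. The series text mentions 2 experiments and 3 RNA sets per genotype without tying sets to arrays, so p-values cover only the spread between these samples, which may be technical. The 2 normexp alternatives (offset 50) used the median spot signal, since a mean signal was not among the columns used here.

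The members and 6 lists of 75 genes (upstream repressors, upstream activators, partners and targets, shoot meristem, root and leaf markers) were chosen with earlier results of these data known. The text names all members, FLC, FT, list genes that passed, and the 3 genes most correlated over the arrays with SOC1 and with each member that passed. The mean sdg8 and sdg26 comparisons, the tests of the other FUL and SVP probes and the look at neighbouring genes were added after values had been seen.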

Additional observations from a re-analysis of the deposited data

Results flagged for a closer look

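One list gene had sdg8 differences of opposite direction in the 2 backgrounds. IRT1 is the iron transporter of the root epidermis and 1 of the 16 root markers. It was lower in sdg8 than in wild type, at a difference of −1.45 on the log2 scale. In sdg8 sdg26 it was above sdg26 by 0.70, a difference that did not pass. The IRT1 call of sdg8 against wild type (limma adjusted p = 0.0128) ended without wild-type replicate 1 or either sdg8 array, at adjusted p up to 0.0785. In both backgrounds the arrays of the 2 genotypes compared did not overlap, beside 48.0% of all genes for sdg8 against wild type and 46.2% for sdg8 sdg26 against sdg26. The interaction was 2.14 ± 0.25 with a limma adjusted p of 0.174 (n = 2 arrays per genotype), so the test of the difference itself did not pass. The level of IRT1 was −3.50 and −3.77 in wild type, −4.99 and −5.17 in sdg8, −3.56 and −3.64 in sdg26, and −2.71 and −3.11 in sdg8 sdg26. None of the 9 members tested gave such a case, and LFY was not tested.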

How the results depend on the processing

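Of 1413 member values under the alternatives, 1318 kept their direction or moved by less than their error without crossing the threshold. Of the rest, 15 lost a call and 18 gained one in the same direction. A further 59 changed direction by at least their error without a call, and 3 reversed, changing direction with a call. Counted together, 126 of the 1413 values changed direction. All reversals came with normexp on the local background, where the median of all genes shifted by −0.13 in sdg8, −0.22 in sdg8 sdg26 and −0.19 in the mean sdg8 comparison, where 0 genes passed in sdg8 (523 at an unadjusted p under 0.05) and 0 in sdg8 sdg26 (2148), and where sdg26 replicate 2 held a local background of up to 229880. There AGL42 was at −0.81 in sdg8, −1.28 in sdg8 sdg26 and −1.14 in the mean sdg8 comparison, AGL6 at −0.88, −1.52 and −1.36, and the other FUL probe at −0.76, −1.09 and −1.01, with −1.26 for sdg8 sdg26 against sdg26 and −0.93 for sdg8 against sdg26. AGL12 was at −0.44 in sdg8 sdg26 and −0.75 in the mean sdg8 comparison, FT at −0.37 for sdg8 against sdg26, EXPA7 at −0.040 in the mean sdg8 and AGL21 at −0.037 in the mean sdg26 comparison.

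The count of members called, 1 in sdg8, was 0 with both normexp settings, without a filter, with probes well above background on all 8 arrays (AGL42 not among the 5 members tested), with only the arrays compared and with the replicate block, and 0 to 1 without single arrays. In sdg8 sdg26 it was 0 with normexp on the local background, the stricter filter and only the arrays compared, and 0 to 1 without single arrays; with the median background it stayed 1, but AGL19 (−0.68, adjusted p = 0.0454) took the place of AGL42. In the mean sdg8 comparison it was 0 with both normexp settings and the stricter filter, 2 with the mean of all kept probes, and 1 to 2 without single arrays. For sdg8 sdg26 against sdg26 it rose from 0 to 1 with quantile normalization (AGL42, adjusted p = 0.0339) and with the mean of probes (FUL). For sdg8 against sdg26 it rose to 1 with quantile normalization and to 2 with only the arrays compared (AGL42 and AGL72). In sdg26 and for the interaction it was 0 to 1 without single arrays, through AGL72 without wild-type replicate 1.

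Over all genes, calls in sdg8 fell from 553 to 295 with the median background, 222 without a filter, 215 with only the arrays compared and 349 with the replicate block; in sdg8 sdg26 they went from 1290 to 2173, 727, 497 and 900. With slide as a random block (correlation 0.051) AGL42 had adjusted p of 0.0427 in sdg8 and 0.0197 in sdg8 sdg26, and no member count changed, nor did it with the authors' log2 table. Same-numbered replicates deviated together at correlations of −0.40 to 0.39. These were positive among wild type, sdg8 and sdg26 and negative for each of them with sdg8 sdg26. Whether the arrays are paired in some other order was not tested. With the replicate block AGL42 in sdg8 had an adjusted p of 0.0628, and the other FUL probe there 0.0777. Signal over background limits AP1, AGL42, AGL71, AGL72 and LFY.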
